A study of Homo sapiens with 3 samples.

Results

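The genes described here are 8 of the 36601 genes counted: the interferon-stimulated genes ISG15, IFI6 and IFIT1, the transcription factor gene IRF1, and HLA-B, HLA-C, B2M and TAP1, which serve MHC class I antigen presentation. They were taken by symbol from the deposited gene table, which holds each symbol once, and a UMI of each was counted in all 3 libraries. OVCAR3, the established human line used throughout, derives from high-grade serous ovarian cancer, and each condition was 1 library of single cells made with a 10x Genomics 3′ kit. The DMSO culture received the solvent alone for 48 h, the RAC1i culture received 50 μM NSC23766, which blocks activation of the small GTPase RAC1, and the Combo culture received 50 μM NSC23766 together with 5 μM GSK126, an inhibitor of the histone methyltransferase EZH2, for the same time. Both inhibitors were dissolved in DMSO, all cultures grew in DMEM with serum, and no interferon is named among the agents. The culture given the EZH2 inhibitor alone was not analysed here, so Combo against RAC1i is the only view of the EZH2 inhibitor, and it is on top of RAC1i. With 1 library per condition there was no replicate error, no test and no p-value, and the intervals below (95%) cover counting error only.

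Interferons are secreted proteins that bind receptors on the cell surface and signal through the kinases JAK1, JAK2 and TYK2. Type I and type III interferons assemble a complex with STAT2 and IRF9 that binds the interferon-stimulated response element (ISRE), whereas interferon gamma acts at the gamma-activated site (GAS), and IRF1 is one of its first targets. NF-κB, the factor of inflammatory signalling, has sites in the promoters of IRF1 and of many MHC class I genes. On the MHC class I path, immunoproteasome subunits such as PSMB9 cut proteins, TAP1 and TAP2 carry the peptides into the endoplasmic reticulum, and an HLA heavy chain with B2M presents them to CD8 T cells. In ovarian cancer this path is studied because its loss hides tumour cells from T cells, and EZH2 is known to repress MHC class I genes in several tumour types.

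The sequence just before each start site is shown because the letters that these factors recognise can be seen in it. No link between these letters and the levels below was tested. The RefSeq promoter table (GRCh38.p14) held all 8 genes. The 250 bases before the start were searched on both strands for the ISRE letters (GAAA, any 2 bases and GAAA again), which 3.02% of 35116 such windows hold, for the GAS letters TTCNNNGAA, which 6.57% hold, and for the NF-κB consensus, which 5.21% hold. Capitals mark the matches, which may overlap, and the stretches run 5′ to 3′ on the strand of the gene. ISG15, IFI6 and IFIT1 held 2, 3 and 2 ISRE matches and no match of the others:
ISG15 (chr1:1013372-1013411, plus strand): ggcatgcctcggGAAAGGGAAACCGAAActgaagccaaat
IFI6 (chr1:27672264-27672360, minus strand): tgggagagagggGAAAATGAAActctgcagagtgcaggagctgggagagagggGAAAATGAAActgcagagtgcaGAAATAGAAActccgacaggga
IFIT1 (chr10:89392495-89392541, plus strand): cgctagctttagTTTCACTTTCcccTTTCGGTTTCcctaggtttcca
IRF1 held 1 GAS match and 1 NF-κB match but no ISRE match:
IRF1, GAS (chr5:132490877-132490909, minus strand): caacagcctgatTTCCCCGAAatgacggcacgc
IRF1, NF-κB (chr5:132490802-132490835, minus strand): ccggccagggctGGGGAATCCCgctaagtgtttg
HLA-B held 2 overlapping NF-κB matches and HLA-C 1, and neither held an ISRE or GAS match at these letters:
HLA-B (chr6:31357334-31357368, minus strand): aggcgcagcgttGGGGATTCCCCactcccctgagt
HLA-C (chr6:31272243-31272276, minus strand): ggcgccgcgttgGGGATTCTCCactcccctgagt
B2M and TAP1 each held 2 overlapping ISRE matches and 1 NF-κB match. For B2M and TAP1 the stretches are kept short because they overlap or touch an exon of an annotated transcript of the gene:
B2M (chr15:44711373-44711401, plus strand): GAAAAGGAAACTGAAAacgGGAAAGTCCC
TAP1, ISRE (chr6:32853816-32853845, minus strand): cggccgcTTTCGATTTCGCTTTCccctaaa
TAP1, NF-κB (chr6:32853757-32853786, minus strand): gcctgttcctGGGACTTTCCgagagccccg
A match is a stretch of letters and not a bound site, and a missing match says only that these letters are not in this window.

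The filters of the study's methods kept 7531, 10215 and 8239 cells of 10071, 11772 and 9757 barcodes in DMSO, RAC1i and Combo, with 199063947, 234969742 and 212792113 UMIs in all and a median of 26750, 20989 and 24953 UMIs per cell. Between 15 and 23 kept barcodes were shared by each pair of libraries. All 10 serous and epithelial markers had UMIs in every library, with a summed level of 4185, 2256 and 2488 CPM, and PAX8, the Müllerian lineage factor, stood at 355, 54.3 and 47.8 CPM. The 10 blood cell markers summed to 1.95, 8.57 and 8.34 CPM, from 388, 2014 and 1775 UMIs. CD14 had 178, 1790 and 1596 of these, which is most of them in RAC1i and Combo but not in DMSO. The pan-leukocyte marker PTPRC had 2, 5 and 0 UMIs. The labelled cell type thus had its defining markers, and the part of the lower serous level and the higher CD14 in the results below was not tested.

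To ask how RAC1 inhibition moved these genes, levels were computed as UMIs of the gene per 1e6 UMIs of all kept cells of a library (CPM). Relative to DMSO the 8 genes parted in both treated libraries (see the plot of member levels). IRF1, HLA-B and TAP1 were more than 1.5-fold higher in RAC1i, and ISG15, IFI6 and IFIT1 were more than 1.5-fold lower, while HLA-C and B2M stayed within 1.5-fold. Of 8778 genes that reached 10 CPM in either library, 22.7% were higher and 36.9% lower by this measure, so that 59.6% were past it in either direction, a share to be read beside the 6 of 8 members past it, of which IFI6 and IFIT1 stayed under 10 CPM. In Combo the same 3 were higher, where 21.3% of 8745 genes were, and IFI6 and IFIT1 were lower, where 35.4% were, which makes 5 of 8 members past it beside 56.7% of genes. Both comparisons use the same DMSO library. The median gene stood at a log2 ratio of −0.20 for RAC1i and −0.18 for Combo, which is the reference for a gene that kept pace with the rest. Since reads come from 3′ ends, levels are compared for 1 gene between libraries and not between genes. Fewer cells with a transcript and less of it per cell could not be told apart.

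**Figure D1:**
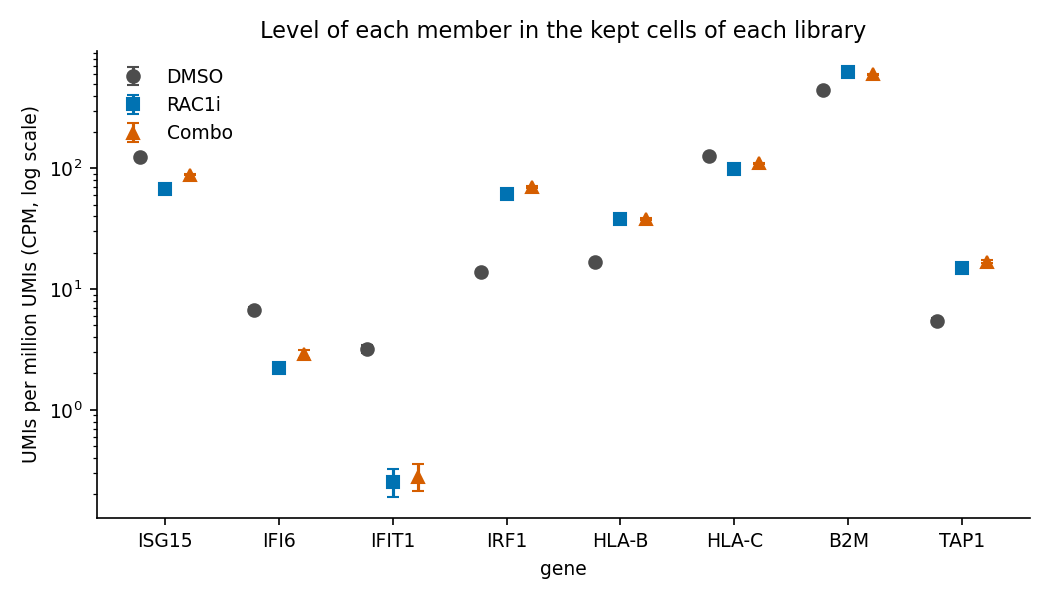
Level of the 8 members in CPM on a log scale (vertical axis) in DMSO (circles), RAC1i (squares) and Combo (triangles), 1 library each, with 95% Poisson intervals that cover counting error only. DMSO is the highest point for ISG15, IFI6, IFIT1 and HLA-C and the lowest for IRF1, HLA-B, B2M and TAP1, and for IFIT1 it lies at 3.18 CPM against 0.251 and 0.277.

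ISG15 (chr1:1001138-1014540, plus strand) encodes a ubiquitin-like protein that is joined to other proteins and also secreted. It had 124 CPM (123–126) in DMSO against 68.03 (66.98–69.1) in RAC1i and 88.8 (87.5–90.03) in Combo. DMSO was thus highest and RAC1i lowest, with none of the intervals touching, and RAC1i held 0.548 (0.537–0.559) and Combo 0.715 (0.701–0.728) of the DMSO level. Among genes that reached 10 CPM, 28.1% had a lower RAC1i ratio, and it stood at 0.630 of the ratio of the median gene. ISG15 in Combo was within 1.5-fold of DMSO on this scale but past it as a mean over cells of CPM (log2 ratio of −0.66) or over thinned cells (−0.62). IFI6 (chr1:27666064-27672212, minus strand), which encodes an antiviral and anti-apoptotic membrane protein, had 6.74 CPM (6.39–7.11) in DMSO against 2.23 (2.04–2.43) in RAC1i and 2.91 (2.69–3.15) in Combo. Its ratio to DMSO was 0.330 (0.298–0.366) in RAC1i and 0.432 (0.392–0.476) in Combo, again with DMSO highest and RAC1i lowest. IFIT1 (chr10:89392546-89406487, plus strand) encodes a protein that binds viral RNA lacking a cellular cap mark. It was counted with 633 UMIs in DMSO and 59 in each treated library, which is 3.18 CPM (2.94–3.44) in DMSO against 0.251 (0.191–0.324) in RAC1i and 0.277 (0.211–0.358) in Combo. The IFIT1 ratios of 0.0790 (0.0594–0.103) and 0.0872 (0.0656–0.114) were the lowest of the 8 members, and RAC1i and Combo could not be told apart for it at this depth. IFI6 and IFIT1 did not reach the minimum of 10 CPM that the background uses.

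IRF1 (chr5:132440440-132508719, minus strand), the interferon gamma and NF-κB responsive transcription factor, ran the other way. It had 13.9 CPM (13.4–14.4) in DMSO against 61.2 (60.2–62.2) in RAC1i and 69.98 (68.9–71.1) in Combo. The libraries stood in the order DMSO, RAC1i and Combo without overlap, and RAC1i held 4.41 (4.23–4.59) and Combo 5.03 (4.83–5.24) times the DMSO level. Its RAC1i ratio lay above that of 96.9% of genes that reached 10 CPM and its Combo ratio above that of 98.1%, and both its ratios were the highest of the 8 members.

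The MHC class I members did not move as a block. HLA-B (chr6:31353872-31367067, minus strand), a classical heavy chain, had 16.6 CPM (16.1–17.2) in DMSO against 38.4 (37.6–39.2) in RAC1i and 38.1 (37.2–38.9) in Combo. It was more than 2-fold higher in both treated libraries, with ratios of 2.31 (2.22–2.41) and 2.29 (2.20–2.39) that did not differ beyond counting error. HLA-C (chr6:31268749-31272130, minus strand), the neighbouring classical heavy chain and main ligand of the KIR receptors of natural killer cells, had 128 CPM (126–129) in DMSO against 98.1 (96.9–99.4) in RAC1i and 109.8 (108–111) in Combo. At log2 ratios of −0.38 and −0.22 it stayed close to the median gene, although it is highest in DMSO on the CPM scale. The HLA genes are near copies of each other and were counted on reference alleles, so reads can be split or lost between them, and their levels are uncertain for that reason. B2M (chr15:44711358-44718851, plus strand), the light chain of every class I molecule, had 443 CPM (440.4–446) in DMSO against 625 (622–628) in RAC1i and 601 (597–604) in Combo. It was 1.41-fold higher in RAC1i and 1.36-fold higher in Combo than in DMSO, short of 1.5-fold, although it passed this limit in RAC1i when scaled by DESeq2 size factors (log2 ratio of 0.61). Set against the ratio of the median gene, B2M stood at 1.62 in RAC1i and 1.54 in Combo. TAP1 (chr6:32845209-32853816, minus strand), one chain of the peptide transporter, had 5.42 CPM (5.10–5.75) in DMSO against 15.1 (14.6–15.6) in RAC1i and 16.9 (16.3–17.4) in Combo. Its ratios to DMSO were 2.78 (2.60–2.98) and 3.11 (2.91–3.33), with the intervals of all 3 libraries apart.

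TAP1 stands head to head with PSMB9, which encodes an immunoproteasome subunit, and the RefSeq starts of both genes lie 488 bases apart on opposite strands. PSMB9 went the other way from TAP1, with 9.32 CPM (8.90–9.75) in DMSO against 3.12 (2.90–3.35) in RAC1i and 4.11 (3.84–4.39) in Combo. RAC1i held 0.335 (0.307–0.365) and Combo 0.441 (0.406–0.478) of the DMSO level. The partner chain TAP2 was also lower in the treated libraries (11.2, 5.04 and 4.81 CPM). PSMB9, which falls outside the naming rule as it does not reach 10 CPM, was singled out after its values were seen. The annotated spans of TAP1 and PSMB9 overlap on opposite strands in GENCODE 44, and how reads of the overlap were counted was not examined. The 250 bases before the PSMB9 start held no match of the 3 motifs. They end short of the TAP1 matches shown above, which lie between the 2 starts, so the whole stretch between the genes was not searched for PSMB9.

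**Figure D2:**
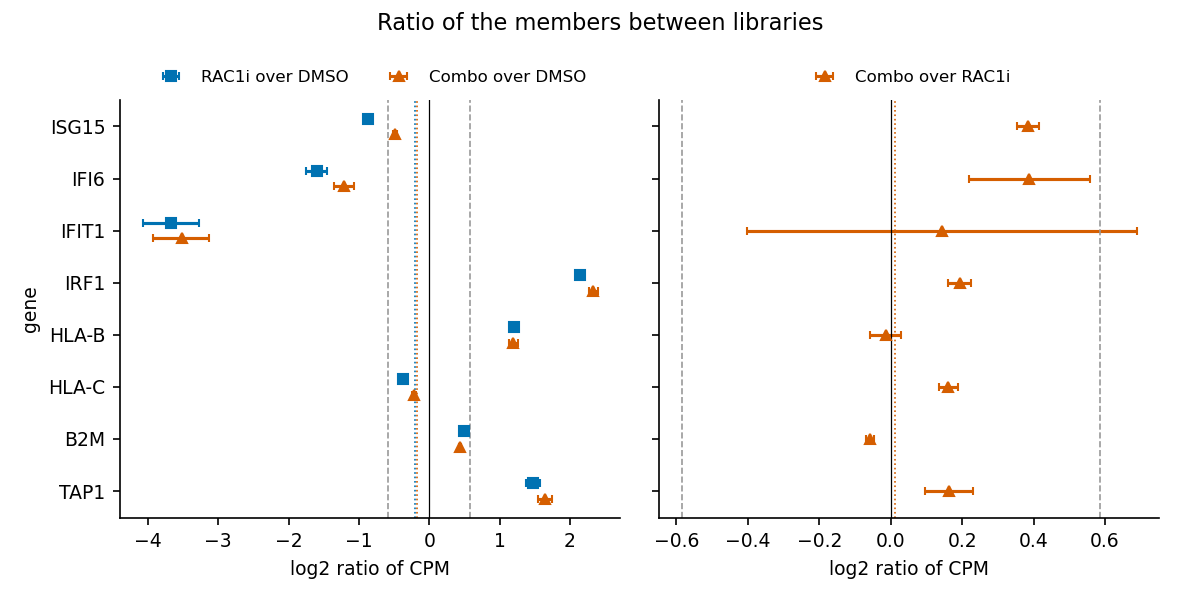
Log2 ratio of CPM (horizontal axis) of the 8 members between libraries, with exact 95% intervals for counting error, RAC1i and Combo over DMSO at left and Combo over RAC1i at right on its own scale. Dashed lines mark 1.5-fold and dotted lines the median of all genes. IRF1, TAP1 and HLA-B lie beyond 1.5-fold on the higher side, IFI6 and IFIT1 on the lower side in both treated libraries, and no member lies beyond it at right.

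To examine what the EZH2 inhibitor added to RAC1i, Combo was set against RAC1i. None of the 8 members was past 1.5-fold, and of 7443 genes that reached 10 CPM only 0.658% were (0.175% higher, 0.484% lower). ISG15 was 1.30 (1.28–1.33) times and IFI6 1.31 (1.16–1.47) times the RAC1i level. Of the genes that reached 10 CPM, 97.7% had a lower Combo over RAC1i ratio than ISG15. IFI6 stayed under that minimum and was not placed among them. IRF1, HLA-C and TAP1 were slightly higher in Combo, at 1.14 (1.12–1.17), 1.12 (1.10–1.14) and 1.12 (1.07–1.17) times the RAC1i level. B2M was slightly lower, at 0.961 (0.954–0.968). For HLA-B, at 0.990 (0.961–1.02), and for IFIT1, at 1.10 (0.757–1.61), the interval held a ratio of 1. The IFIT1 interval is wide because it rests on 59 UMIs in each library, and it reaches past 1.5-fold at its upper end. Without a second culture, none of these small differences can be set against the variation between cultures.

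Next, the share of cells with at least 1 UMI was compared at equal depth, with each cell thinned at random to 5000 UMIs and 806, 1015 and 885 shallower cells left out in DMSO, RAC1i and Combo. For ISG15 this was 43.9% (42.7–45.1) of DMSO, 24.5% (23.6–25.4) of RAC1i and 29.4% (28.4–30.5) of Combo cells. IRF1 was found in 6.23% (5.66–6.83) of DMSO, 24.03% (23.2–24.9) of RAC1i and 26.6% (25.6–27.6) of Combo cells, and HLA-B in 7.48% (6.86–8.13) of DMSO, 16.7% (15.96–17.5) of RAC1i and 15.7% (14.9–16.6) of Combo cells. At means under 1 UMI per thinned cell, as for every member but B2M, such a share follows the mean level, so it restates the levels and does not count the cells that express a gene. TAP1 was found in 2.81% (2.43–3.23) of DMSO, 7.13% (6.61–7.68) of RAC1i and 8.72% (8.08–9.38) of Combo cells. IFI6 was found in 2.84% (2.46–3.27) of DMSO, 1.15% (0.944–1.39) of RAC1i and 1.31% (1.06–1.59) of Combo cells, and IFIT1 in 1.29% (1.04–1.59) of DMSO, 0.109% (0.0521–0.200) of RAC1i and 0.136% (0.0652–0.250) of Combo cells, the latter from 10 cells in each treated library. For HLA-C the shares were 43.9% (42.7–45.1) of DMSO, 37.1% (36.1–38.1) of RAC1i and 39.7% (38.5–40.8) of Combo cells, and for B2M 84.03% (83.1–84.9) of DMSO, 92.1% (91.5–92.7) of RAC1i and 89.6% (88.9–90.3) of Combo cells. B2M was the only member found in most cells of every library at this depth. Without thinning the shares were 82.7%, 55.1% and 61.9% for ISG15, 12.8%, 4.49% and 6.24% for IFI6, 5.62%, 0.558% and 0.668% for IFIT1 and 26.2%, 56.96% and 62.2% for IRF1 in the same order of libraries. They were 29.3%, 45.8% and 48.1% for HLA-B, 77.97%, 73.3% and 75.7% for HLA-C, 93.4%, 95.1% and 93.7% for B2M and 12.5%, 25.9% and 30.3% for TAP1. With and without thinning, DMSO had the highest share for ISG15, IFI6, IFIT1 and HLA-C and the lowest for the other 4 members. All cells were of 1 line, so no cell type that lacks these genes was at hand to measure free RNA.

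**Figure D3:**
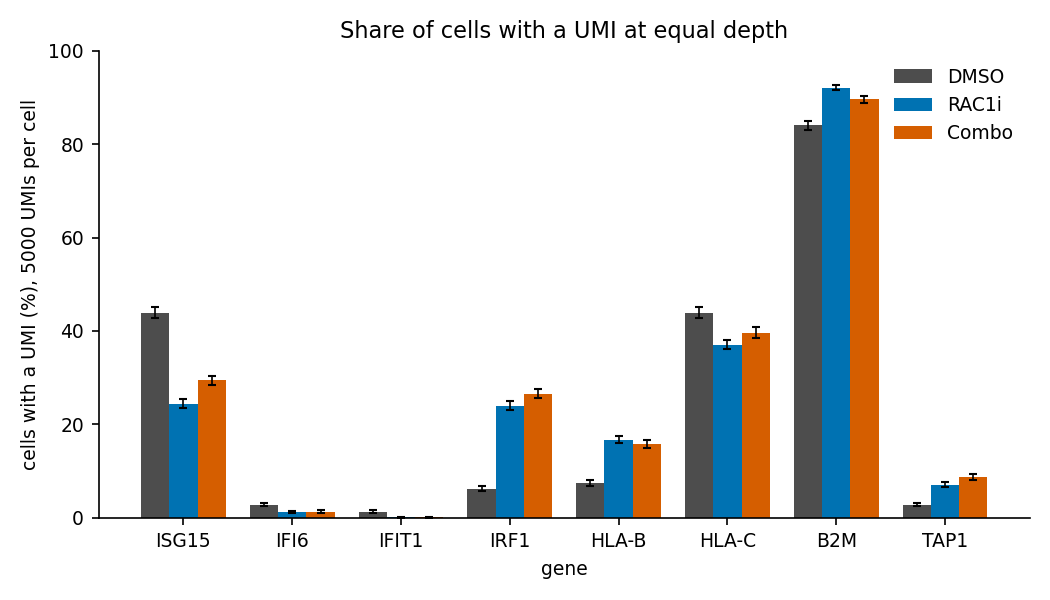
Share of cells with at least 1 UMI of each member (vertical axis, percent) after thinning every cell to 5000 UMIs, in DMSO, RAC1i and Combo, with exact Clopper-Pearson 95% intervals. The IRF1 bar goes from 6.23% in DMSO to 24.03% and 26.6%, and the ISG15 bar from 43.9% to 24.5% and 29.4%.

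To place the members in their pathway, 131 other genes of interferon signalling and antigen presentation were listed by role. Of the 51 with at least 10 CPM, 6 were more than 1.5-fold higher and 29 lower in RAC1i than in DMSO, where 22.7% and 36.9% of all genes were, with a median log2 ratio of −0.89 beside −0.20 for all genes. With a minimum of 1 CPM, 62 of 92 were lower and 9 higher, where 41.3% of all genes were lower and 24.1% higher (65.4% in either direction). For Combo over DMSO, 29 were lower and 6 higher of 51, beside 35.4% and 21.3% of all genes, and at 1 CPM 63 were lower and 9 higher of 92, beside 40.1% and 22.8% of all genes (63% in either direction). For Combo over RAC1i, 0 of 41 genes at 10 CPM and 0 of 76 at 1 CPM were past 1.5-fold, where 0.658% of all genes at 10 CPM and 2.11% at 1 CPM were (at 1 CPM 0.85% higher and 1.26% lower).

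Among the receptors, IL10RB, the shared chain of the type III receptor, was at 50.7, 8.01 and 9.74 CPM in DMSO, RAC1i and Combo, IFNAR2 of the type I receptor at 22.6, 7.09 and 7.12 CPM, and IFNGR1 of the interferon gamma receptor at 15.6, 6.23 and 6.58 CPM. These 3 of 5 measured receptor genes were lower in RAC1i, where 36.9% of all genes at this minimum were, and IFNAR1 (94.3, 67.8 and 71.6 CPM) and IFNGR2 were within 1.5-fold. Of 10 genes of the JAK, STAT and IRF list, 3 were lower and 3 higher, beside 36.9% and 22.7% of all genes. JAK1, the kinase that all interferon receptors use, stood at 251, 38.7 and 44.6 CPM, which is 0.154 (0.151–0.157) of the DMSO level in RAC1i. STAT2 stood at 24.5, 5.03 and 5.06 CPM, while IRF9, its DNA-binding partner, was within 1.5-fold at 9.78, 9.61 and 8.83 CPM. The kinase TYK2 (8.74, 22.2 and 19.96 CPM) and the IRF2 cofactors IRF2BP2 (47.2, 142 and 110.1 CPM) and IRF2BP1 were higher.

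The effector list held other interferon-stimulated genes beside ISG15, IFI6 and IFIT1, whose upstream sequences were not searched for the ISRE. Of 14 with at least 10 CPM, 11 were lower and 2 higher in RAC1i, with a median log2 ratio of −1.11, beside 36.9% and 22.7% of all genes and their median of −0.20, and of 32 with at least 1 CPM, 27 were lower, beside 41.3% of all genes at 1 CPM. PARP14, an ADP-ribosyltransferase, was at 134, 33.2 and 32.4 CPM, the ISG15 ligase HERC5 at 16.2, 3.92 and 5.50 CPM, the exonuclease ISG20 at 19.1, 4.80 and 5.14 CPM and PARP9 at 54.7, 19.4 and 18.9 CPM. The 2 genes that were higher were IFITM3 (161, 297 and 289 CPM) and IFITM2 (68.5, 105 and 95.4 CPM), which encode membrane proteins that block viral entry. ISG15, at 0.548 of DMSO, had a higher ratio than PARP14 (0.248) or HERC5 (0.242).

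Of the listed targets of interferon gamma and IRF1, 6 had at least 10 CPM, and 1 of them was higher in RAC1i and 2 in Combo, beside 22.7% and 21.3% of all genes. In RAC1i ICAM1, an adhesion molecule that NF-κB also drives, was higher (2.48, 19.1 and 13.4 CPM), and 3 were lower, where 36.9% of all genes were, namely TNFSF10 (10.9, 3.47 and 2.71 CPM), which encodes the death ligand TRAIL, LAP3 (38.8, 19.1 and 24.04 CPM) and WARS (50.7, 32.97 and 29.9 CPM). With at least 1 CPM, 11 of 15 were lower, beside 41.3% of all genes, and GBP1, GBP2, GBP4 and GBP5, guanylate-binding proteins of this list that were chosen after their values were seen, stood at 0.175, 0.160, 0.0855 and 0.0344 of the DMSO level. On the MHC class I path outside the members, 6 of 11 genes were lower and 0 higher in RAC1i, beside 36.9% and 22.7% of all genes, with the immunoproteasome subunit PSMB10 at 64.8, 27.3 and 29.6 CPM and the peptide-loading chaperones CALR at 555, 238 and 263 CPM and PDIA3 at 234, 108 and 123 CPM. NLRC5, the transactivator of class I genes, was low throughout (0.914, 0.387 and 0.437 CPM). No other listed gene of this path with at least 1 CPM was more than 1.5-fold higher in RAC1i, and HLA-E, a non-classical heavy chain, came nearest at 42.3, 53.2 and 60.4 CPM.

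Sensors of viral nucleic acids completed the list. Of 4 with at least 10 CPM, 3 were lower in RAC1i, beside 36.9% of all genes: the signalling adaptor MAVS (29.6, 7.94 and 7.99 CPM), the RNA sensor DDX58 (14.6, 6.11 and 7.50 CPM) and its activator TRIM25 (38.3, 17.9 and 16.02 CPM). TBK1, the kinase downstream of them, was at 14.9, 18.8 and 18.5 CPM. CGAS, the DNA sensor, which is outside the naming rule and was singled out for its values, went from 16 UMIs in DMSO to 624 in RAC1i and 451 in Combo.

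**Figure D4:**
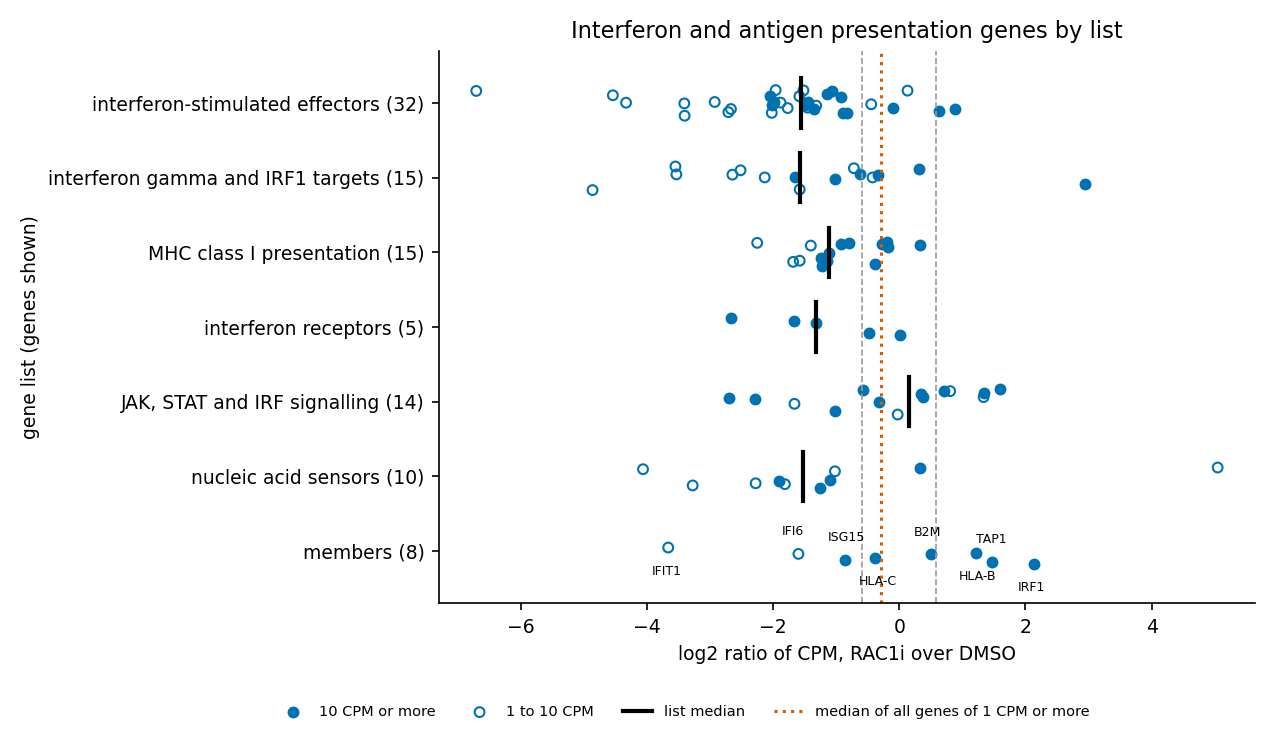
Log2 ratio of CPM, RAC1i over DMSO (horizontal axis), of every listed gene that reached 1 CPM in either library, by list, with the members in the lowest row. Filled points have at least 10 CPM, bars are list medians, the dotted line is the median of all genes and dashed lines mark 1.5-fold. Most points of the effector, target, MHC class I presentation, receptor and sensor lists lie left of the dotted line, whereas the members IRF1, TAP1 and HLA-B lie right of 1.5-fold.

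The spread of the members over cells was described with the Fano factor, the variance of UMIs per thinned cell over their mean, which is near 1 for counting noise. Genes with at least 50 CPM had a median of 1.08, 1.14 and 1.14 in DMSO, RAC1i and Combo, and their 90th percentiles were 1.43, 1.67 and 1.70. ISG15 was at 1.57, 1.48 and 1.55, above the 90th percentile in DMSO and between it and the median in RAC1i and Combo. B2M was at 1.43, 1.52 and 1.51, near or below the 90th percentile, at the far higher mean of 2.16, 3.11 and 2.87 UMIs per cell. IRF1 went from 1.13 in DMSO to 1.42 and 1.48, at a higher mean. HLA-C (1.10, 1.07 and 1.11), HLA-B (1.07, 1.08 and 1.16) and TAP1 (1.00, 1.06 and 1.02) stayed close to counting noise. The means of HLA-B (0.080, 0.190 and 0.183 UMIs per thinned cell) and TAP1 (0.029, 0.076 and 0.092) were low. A low mean draws this factor towards 1, so uneven levels between cells could go unseen, and even expression cannot be read from it. IFIT1 reached 1.75 in DMSO at a mean of 0.0149 UMIs per cell, with up to 31 UMIs in 1 cell before thinning.

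Over cells of a library the members were only weakly related, and since counts are sparse the values are given as a description and not as a finding, over 6725, 9200 and 7354 cells that share a culture and a depth. Pearson's r of ISG15 with IFI6 was 0.18, 0.07 and 0.10 in DMSO, RAC1i and Combo, and of ISG15 with IFIT1 0.22, 0.03 and 0.03. HLA-C and B2M had 0.16, 0.06 and 0.10, and IRF1 and TAP1 0.02, 0.02 and 0.04. ISG15 and B2M had 0.03, −0.04 and −0.02. Among genes with at least 50 CPM, those most like the summed UMIs of ISG15, IFI6 and IFIT1 were IFITM3 (0.09) and MIF (0.09) in DMSO, AURKAIP1 (0.21) and KRT7 (0.20) in RAC1i, and AURKAIP1 (0.22) and NDUFB10 (0.20) in Combo. Those most like the sum of the 4 MHC class I members were SPINT2 (0.24) and CTSB (0.22) in DMSO, RPS13 (0.18) and RPS27A (0.18) in RAC1i, and PPIA (0.21) and MYL12A (0.20) in Combo, with r in parentheses.

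Because CXCL1, an NF-κB-driven chemokine, stood at 44.5, 439 and 251 CPM in DMSO, RAC1i and Combo, the members were also compared within a library between thinned cells with 5 or more CXCL1 UMIs and those with none. In RAC1i (1371 and 3898 cells) IRF1 was at 107 CPM (99.05–115) against 43.6 CPM (40.7–46.6), and TAP1 at 23.9 CPM (20.4–27.9) against 11.9 CPM (10.4–13.5). HLA-B stood at 45.7 against 34.2 CPM and B2M at 700.1 against 587. ISG15 ran opposite, at 48.9 CPM (43.8–54.4) against 80.9 CPM (76.97–85.01). In Combo (582 and 4076 cells) the same directions were seen, with IRF1 at 126 against 54.8 CPM, HLA-B at 52.9 against 33.7, B2M at 686 against 546, TAP1 at 31.96 against 14.4 and ISG15 at 53.95 against 94.9. In both treated libraries, then, cells rich in CXCL1 had more IRF1, TAP1, HLA-B and B2M and less ISG15 than thinned cells with no UMI of it. HLA-C was at 140.2 against 106 CPM in Combo, while in RAC1i the intervals overlapped, at 102 CPM (94.5–109.8) against 94.2 CPM (89.9–98.6). In DMSO only 68 cells had 5 or more CXCL1 UMIs, with IRF1 at 38.2 CPM (20.4–65.4) against 13.3 CPM (11.98–14.6) and ISG15 at 144 CPM (107–191) against 128 CPM (124–132). HLA-C was at 203 CPM (158–257) against 118 CPM (114–122) there, HLA-B at 38.2 CPM (20.4–65.4) against 15.1 CPM (13.8–16.6) and B2M at 547 CPM (471–632) against 425 CPM (417–432), with intervals apart for these 3. TAP1 was at 14.7 CPM (4.77–34.3) against 5.30 CPM (4.51–6.19) from 5 UMIs, with overlapping intervals. Thinned cells with no CXCL1 UMI had IRF1 at 43.6 CPM in RAC1i and 13.3 in DMSO. Such cells need not lack CXCL1, since it was found in 57.6% of RAC1i cells with thinning and 77.7% without, against 10.2% and 23.4% in DMSO. The split thus does not make CXCL1 equal between libraries, and its part in the IRF1 levels was not tested.

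The levels of some members also differed with the mitochondrial share of a cell. Cells of each library were ranked by this share and split into 4 bins of equal size, given here from the lowest to the highest share. The median share was 5.60%, 1.66% and 1.58% in DMSO, RAC1i and Combo, so the same bin covers different shares in DMSO and in the treated libraries. In RAC1i ISG15 was at 50.1, 63.02, 79.5 and 97.2 CPM, B2M at 712, 638, 582 and 484 and HLA-B at 48.2, 37.98, 33.5 and 26.4. ISG15 was thus higher and B2M and HLA-B lower where the share was high. IRF1 went from 59.6 to 63.8 CPM and HLA-C from 102 to 91.6 over these bins. In Combo ISG15 was at 62.3, 88.9, 113 and 101 CPM, highest in the third bin, B2M at 706, 609.6, 539 and 441 and HLA-B at 48.5, 37.8, 31.2 and 26.96. IRF1 in Combo was at 69.02, 67.9, 61.4 and 98.1 CPM. In DMSO ISG15 was at 149, 127, 116 and 118 CPM, B2M at 369.7, 454, 438 and 469.9 and HLA-B at 12.9, 18.6, 15.3 and 17.4, where the lowest bin stood apart and the other 3 showed no steady order. Depth differed between these bins too, with a median of 8638 UMIs per cell in the highest bin against 27124 in the lowest in RAC1i and 7137 against 31461 in Combo, and of 6978 in the lowest bin of DMSO against 24436 to 35026 in the others, and the part of depth was not tested. With cells split into 4 such bins by UMIs per cell, the shallowest DMSO bin held ISG15 at 148 CPM, B2M at 343 and HLA-B at 7.79, against 118, 427 and 17.6 in the deepest. In RAC1i these were 55.4, 507 and 30.6 CPM in the shallowest bin against 70.5, 628 and 38.9 in the deepest. In Combo they were 74.5, 415 and 22.3 against 94.9, 615 and 39.8. ISG15 was thus lower in the shallowest than in the deepest bin of both treated libraries, unlike in DMSO. IRF1 was highest in the shallowest bin, at 94.3 CPM in RAC1i and 138 in Combo, against 56.2 and 60.9 in the deepest. In DMSO IRF1 was 13.7 and 14.1 CPM in these bins. The bin of DMSO cells with the lowest mitochondrial share held IFIT1 at 7.28 CPM (6.21–8.47) against 2.50 to 3.02 in the others. That interval covers counting error only and leaves out differences between cells.

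A few cells held many more UMIs of the interferon-stimulated members than the rest. Cells with 3 or more UMIs of MX1, an antiviral GTPase and not a member (4.49, 1.22 and 1.53 CPM in DMSO, RAC1i and Combo), were set apart, a limit chosen after the data were seen. There were 26 of 7531 in DMSO (0.345%, 0.226–0.505), 4 of 10215 in RAC1i (0.0392%, 0.0107–0.100) and 7 of 8239 in Combo (0.0850%, 0.0342–0.175). In DMSO these cells had ISG15 at 965 CPM (908–1024) against 119 (118–121) in the rest. IFI6 was at 129.9 CPM (109.6–153) against 6.05 (5.71–6.40), and IFIT1 at 125 CPM (105–148) against 2.49 (2.28–2.72). These levels were 8.08-fold (ISG15), 21.5-fold (IFI6) and 50.4-fold (IFIT1) of the rest. The intervals leave out the differences between the 26 cells, which held 2 to 150 ISG15 UMIs each, and are too narrow for that reason. The IFIT1 value rests on few cells, since 11 of the 26 held no IFIT1 UMI and the 7 cells with more than 10 held 119 of their 140. TAP1 was at 17.9 CPM (10.9–27.7) against 5.34 (5.03–5.68) from 20 UMIs, and HLA-B at 27.8 CPM (18.9–39.4) against 16.6 (15.99–17.1). B2M was 1.20-fold and HLA-C 1.09-fold of the rest, and IRF1 was at 9.85 CPM (4.92–17.6) against 13.9 (13.4–14.5), where the intervals overlap. The cells were deeper than the rest, with a median of 42714 against 26713 UMIs, and the part of depth in passing the MX1 limit was not tested.

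The MX1 cells were 0.345% of DMSO cells but held 4.36% of its ISG15, 10.8% of its IFI6 and 22.1% of its IFIT1 UMIs. Of 35 effectors with at least 100 UMIs in DMSO, 32 were more than 1.5-fold higher in them, where 9.41% of 14904 genes with as many UMIs were. The counts were 18 of 27 in RAC1i, beside 16.4% of all such genes, and 23 of 26 in Combo, beside 20.7%. The minimum of 100 UMIs was counted over all kept cells, the MX1 cells included, for effectors and for all genes alike. RSAD2 in DMSO (92 UMIs in the rest) and HERC6 in Combo (97) reached it only through the MX1 cells. Both are among the genes counted as higher. With only 4 and 7 cells, a few UMIs decide many of these calls, and IFI35 passed on 1 UMI in both libraries. MX1 itself, which set the cells apart, is left out of these counts. In the 7 Combo cells ISG15 was at 1244 CPM (1104–1397) against 87.5 (86.3–88.8) in the rest and IFI6 at 91.4 CPM (56.6–139.7) against 2.82 (2.60–3.05), and IRF1 was at 131 CPM (88.1–186) against 69.9 (68.8–71.05). In the 4 RAC1i cells ISG15 was at 596 CPM (477–737) against 67.7 (66.7–68.8) and IFI6 at 97.1 CPM (53.1–163) against 2.17 (1.98–2.36). There IRF1 was at 41.6 CPM (15.3–90.6) against 61.2 (60.2–62.3) from 6 UMIs, with overlapping intervals, and IFIT1 had 0 UMIs, which allows up to 25.6 CPM at the upper bound of its exact interval. A single cell held between 2 and 150 ISG15 UMIs in the DMSO set, between 9 and 39 in RAC1i and between 12 and 74 in Combo. Without these cells the log2 ratio of IFIT1 to DMSO was −3.31 in RAC1i and −3.24 in Combo, and that of ISG15 was −0.82 in RAC1i and −0.45 in Combo.

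**Figure D5:**
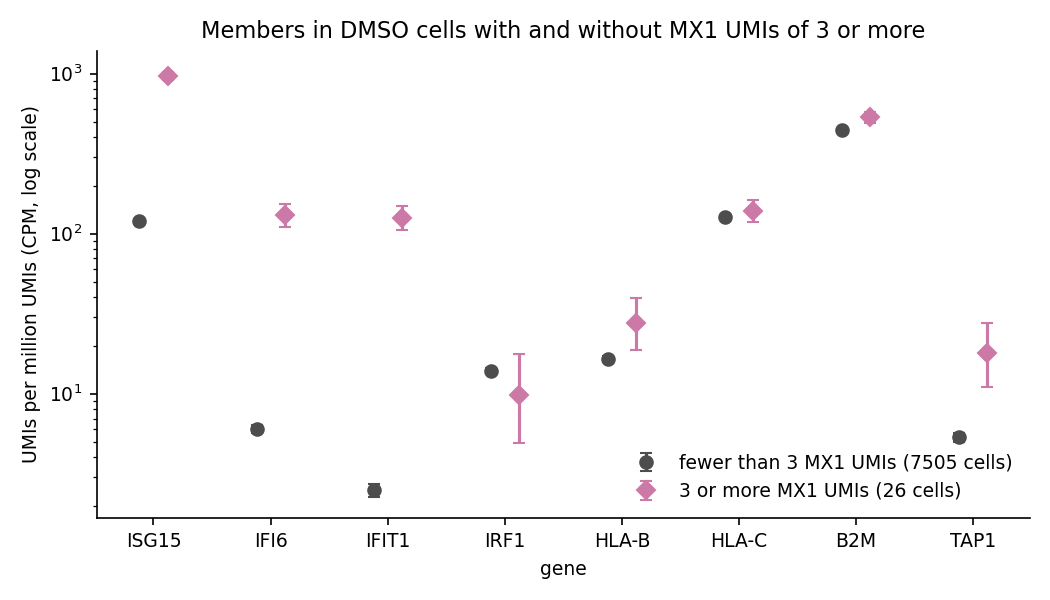
Level of the 8 members in CPM on a log scale (vertical axis) in DMSO cells with 3 or more MX1 UMIs (diamonds, 26 cells) and with fewer (circles, 7505 cells), with 95% Poisson intervals for counting error. ISG15, IFI6 and IFIT1 stand far apart between the groups, TAP1 and HLA-B less so, and HLA-C, B2M and IRF1 lie close together.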

How the data were processed

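OVCAR3 cells were profiled as 1 library for each of DMSO, RAC1i and Combo. Per the labels and methods, the authors sequenced 10x Genomics 3′ libraries and counted UMIs with Cell Ranger 4.0.0 on GRCh38, and deposited whole-number counts of UMIs per gene and barcode without normalization, for 10071, 11772 and 9757 barcodes in DMSO, RAC1i and Combo.

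The limits on cells were those of the methods (more than 1000 genes detected, a mitochondrial share of up to 20% and a complexity above 0.8), and the cells that passed held 96.00%, 92.2% and 88.5% of all UMIs of DMSO, RAC1i and Combo. UMIs were summed per library and divided by the total (CPM). Exact intervals at 95% were taken from the Poisson distribution for levels, from the binomial distribution conditional on the sum for ratios, and by Clopper-Pearson for shares. They cover counting error only, since cells of a culture are not replicates. Genes were read as past the fold beyond 1.5-fold, and lists were described over genes that reached 10 CPM in either library. Cells were thinned to 5000 UMIs for shares, Fano factors and correlations, and no doublet caller was run, so leaving out the 8% of cells with the most UMIs was an alternative. Alternatives were other cell limits, scalings (TMM from edgeR 4.0.16, size factors from DESeq2 1.42.0), depths and minimum levels. The calculations used Python 3.11.15 with numpy 2.4.6, scipy 1.17.1 and pandas 2.3.3. Only the ratio intervals and the 1.5-fold rule were tested on simulated data. These were Poisson counts of library sums, without differences between cells. Loci are from GENCODE 44 and upstream sequences from RefSeq. The members and the gene lists were chosen with earlier results of these data known. Genes were named by a rule: the members, STAT2, IRF9, NLRC5 and CXCL1, the 4 genes of each list with the largest log2 ratio of CPM plus 1 in a comparison, and the 5 genes most alike. Some genes under the rule are not reported here. IFITM3 and IRF2BP1 fell outside it and were named after their values were seen, to complete counts. The cells with 3 or more MX1 UMIs and the 1 CPM minimum were chosen after seeing the data.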

Additional observations from a re-analysis of the deposited data

Results flagged for a closer look

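The comparisons above use kept cells, and the barcodes that the filters left out (2540, 1557 and 1518 in DMSO, RAC1i and Combo) are data outside them. Which limit each barcode failed was not counted. DMSO left out the most barcodes but the smallest share of its UMIs, so its left-out barcodes were the shallowest on average. The part of this depth difference was not tested. Among left-out barcodes, 5 members were higher in both treated libraries than in DMSO. IRF1 was at 60.4 (57.1–63.9) CPM in RAC1i and 72.3 (69.2–75.5) in Combo against 10.9 (8.73–13.4) in DMSO. HLA-B was at 45.1 (42.2–48.2) CPM in RAC1i and 39.9 (37.6–42.3) in Combo against 8.57 (6.69–10.8) in DMSO. TAP1 was at 16.4 (14.7–18.3) CPM in RAC1i and 16.8 (15.3–18.4) in Combo against 3.50 (2.34–5.03) in DMSO, from 29 UMIs in DMSO. B2M was at 663 (652–674) CPM in RAC1i and 647 (638–657) in Combo against 289 (278–301) in DMSO. These 4 ran the same way as in kept cells. HLA-C was at 92.7 (88.5–97.03) CPM in RAC1i and 96.6 (92.97–100.3) in Combo against 76.5 (70.7–82.7) in DMSO, whereas over all kept cells HLA-C was highest in DMSO (128, 98.1 and 109.8 CPM). With kept cells split into 4 bins by UMIs per cell, DMSO was highest for HLA-C in each bin but the shallowest. That bin held HLA-C at 69.6 (64.8–74.6), 76.6 (72.4–81.01) and 70.99 (66.4–75.8) CPM in DMSO, RAC1i and Combo, with overlapping intervals. ISG15 in left-out barcodes was 79.1 (73.1–85.3), 42.7 (39.9–45.7) and 66.6 (63.5–69.7) CPM and so lowest in RAC1i, as in kept cells.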

How the results depend on the processing

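Of 24 ratios of members between libraries, 0 changed direction beyond counting error under up to 11 alternatives. IFIT1 had no value without the 1% of cells with the most UMIs of the gene, which left it no UMI in the treated libraries. For RAC1i over DMSO the log2 ratio ranged over −1.02 to −0.75 for ISG15, −3.74 to −3.31 for IFIT1, 2.07 to 2.44 for IRF1 and 1.41 to 1.66 for TAP1, and for Combo over RAC1i over 0.31 to 0.39 for ISG15 and −0.14 to 0.44 for IFIT1. The number of members past 1.5-fold was 6 for RAC1i over DMSO and 7 with DESeq2 size factors, where B2M passed, 5 for Combo over DMSO and 6 with the mean over cells of CPM or with thinned cells, where ISG15 passed, and 0 for Combo over RAC1i under every alternative. The number of pathway genes past 1.5-fold moved with the minimum level, which sets how many genes are read: for RAC1i over DMSO 35 became 103 with no minimum, 71 at 1 CPM and 16 at 50 CPM, for Combo over DMSO 35 became 105, 72 and 16, and for Combo over RAC1i 0 became 20 with no minimum, where a few UMIs decide. No paired analysis was possible because each condition is 1 library. Depth limits IFIT1 in RAC1i and Combo (59 UMIs each), and a count of 0 allows up to 0.0151 CPM in DMSO (3 UMIs).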

Other observations

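Genes of the interferons themselves had few UMIs. Of 12 listed ligand genes, 5, 9 and 8 had a UMI in DMSO, RAC1i and Combo, with 205, 190 and 125 UMIs in all. IFNE, the epithelial type I interferon of the reproductive tract, had 195, 29 and 16 UMIs and made up most of the DMSO sum. IFNL1, a type III interferon, had 1, 41 and 39 UMIs, and IFNA5 had 0, 94 and 49. IFNB1 had 7, 1 and 3. The ligands named here were picked with their values known, outside the naming rule. IFNA8 and IFNW1 had 0 UMIs in every library. Read with a limit of 3 UMIs, which is tighter than the upper bound of the exact interval, this allows up to 0.0151, 0.0128 and 0.0141 CPM.

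MHC class II genes, which present peptides to CD4 T cells, were mostly too low to compare, and 2 of 10 listed reached 1 CPM in DMSO or RAC1i. Their summed level was 41.7, 38.9 and 36.9 CPM in DMSO, RAC1i and Combo, most of it CD74 (36.6, 33.6 and 31.9 CPM), the invariant chain. CIITA, the class II transactivator, which is outside the naming rule, had 179, 69 and 38 UMIs.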
